A study of Mus musculus with 20 samples.

Results

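Untreated Hepa1-6 cells at 10 h were compared with untreated Hepa1-6 cells at 6 h, the last interval of a time course in medium without growth factors. The arrays were chosen by their labels alone: the 2 untreated arrays at 10 h and the 2 at 6 h, 4 of the 20 arrays of the series. Hepa1-6 is an established mouse hepatoma line of the strain C57L. Per the labels, all cultures were washed and moved to growth factor-depleted medium with antibiotics and glutamine 4 h before the start, so cells at 10 h had been without growth factors for 14 h and cells at 6 h for 10 h. Neither group received any other agent. The other groups were untreated cells at 0, 1 and 3 h and cells given 1 ng/ml TGFβ1 for 0, 1, 3, 6 and 10 h, each with 2 arrays that the labels call biological duplicates. All cultures are of 1 line, so a p-value here measures the spread between duplicate cultures of that line. Time without growth factors, time since the change of medium and time in culture run together and cannot be told apart.

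Serum growth factors act through receptor kinases, and the AKT and ERK pathways below these receptors lead to cyclin D, phosphorylation of the retinoblastoma protein and release of E2F factors, which transcribe the genes of DNA replication. The same pathways drive the making of ribosomes and keep FOXO factors out of the nucleus, and FOXO factors transcribe genes of starvation and cell cycle arrest. Sterol synthesis is under the factor SREBP2, which is active when cell sterol is low, and glycolytic enzymes are among the targets of the hypoxia inducible factor. Metallothioneins are small proteins that bind zinc, and their genes are transcribed by the metal-sensing factor MTF1.

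The genes that carry the results below include replication genes, metallothioneins and a hypoxia target, and the promoters of 6 of them are shown for the short motifs they hold. The sequences are RefSeq's for the mouse build GRCm38.p6, run 5′ to 3′ on the strand of the gene and cover 300 bases around the annotated start. The motifs were chosen with the expression values known, both strands were searched, and a match describes letters and no binding. For E2F the letters TTTCGCGC, TTTCCCGC, TTTGGCGC and TTTGCCGC were searched, and 2.26% of 32851 mouse promoters held at least 1 match. Matches are in capitals for Cdc6 (chr11:98907901-98908200, plus strand), for Mcm5 (chr8:75109259-75109558, plus strand), where 2 matches on opposite strands overlap, and for 1 of the promoters of Uhrf1 (chr17:56304063-56304362, plus strand). They are shown because they hold matches; the other promoter of Uhrf1 and those of the replication genes E2f8 and Tk1, searched in the same way, held 0.
Cdc6: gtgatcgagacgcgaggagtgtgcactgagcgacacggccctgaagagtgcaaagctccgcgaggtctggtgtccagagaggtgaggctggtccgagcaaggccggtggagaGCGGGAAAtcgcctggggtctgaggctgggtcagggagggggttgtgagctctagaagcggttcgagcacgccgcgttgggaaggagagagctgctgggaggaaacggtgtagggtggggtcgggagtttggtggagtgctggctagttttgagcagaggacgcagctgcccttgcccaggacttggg
Mcm5: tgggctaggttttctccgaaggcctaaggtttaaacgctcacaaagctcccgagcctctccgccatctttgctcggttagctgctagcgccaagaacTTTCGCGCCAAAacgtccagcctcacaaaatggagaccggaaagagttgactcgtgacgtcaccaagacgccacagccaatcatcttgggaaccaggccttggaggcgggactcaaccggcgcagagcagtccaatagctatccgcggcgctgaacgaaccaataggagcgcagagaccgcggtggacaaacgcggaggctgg
Uhrf1: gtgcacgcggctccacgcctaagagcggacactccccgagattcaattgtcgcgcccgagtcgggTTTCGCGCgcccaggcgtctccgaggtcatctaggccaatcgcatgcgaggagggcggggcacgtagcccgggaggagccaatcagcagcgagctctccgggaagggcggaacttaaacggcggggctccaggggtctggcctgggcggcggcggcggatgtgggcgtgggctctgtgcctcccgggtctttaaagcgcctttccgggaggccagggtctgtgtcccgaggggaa

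For the metallothioneins the core letters of the metal response element, TGCGCNC and TGCACNC, were searched, and 25.7% of promoters held at least 1 match. The promoter of Mt2 (chr8:94172368-94172667, plus strand) held 4 matches and that of Mt1 (chr8:94178839-94179138, plus strand) held 3, shown in capitals.
Mt2: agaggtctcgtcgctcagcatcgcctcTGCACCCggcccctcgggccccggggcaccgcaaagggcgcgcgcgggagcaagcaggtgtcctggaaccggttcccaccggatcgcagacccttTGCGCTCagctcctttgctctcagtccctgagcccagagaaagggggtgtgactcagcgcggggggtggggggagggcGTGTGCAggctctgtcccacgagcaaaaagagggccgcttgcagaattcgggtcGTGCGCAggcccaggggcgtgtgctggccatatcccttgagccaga
Mt1: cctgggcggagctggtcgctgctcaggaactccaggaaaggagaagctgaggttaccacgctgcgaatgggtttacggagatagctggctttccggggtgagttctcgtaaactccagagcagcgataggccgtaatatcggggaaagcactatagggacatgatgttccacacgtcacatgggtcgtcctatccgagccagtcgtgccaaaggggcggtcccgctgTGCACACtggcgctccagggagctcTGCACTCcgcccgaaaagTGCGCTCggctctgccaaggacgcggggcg

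For the hypoxia response element the core letters ACGTG were searched, which 19.6% of promoters held. The promoter of Bnip3 (chr7:138909457-138909756, minus strand) held 2 matches, 1 on each strand, which overlap in the capitals. Of the 2 promoters of the hypoxia target Aldoc, 1 held 1 match and the other 0.
Bnip3: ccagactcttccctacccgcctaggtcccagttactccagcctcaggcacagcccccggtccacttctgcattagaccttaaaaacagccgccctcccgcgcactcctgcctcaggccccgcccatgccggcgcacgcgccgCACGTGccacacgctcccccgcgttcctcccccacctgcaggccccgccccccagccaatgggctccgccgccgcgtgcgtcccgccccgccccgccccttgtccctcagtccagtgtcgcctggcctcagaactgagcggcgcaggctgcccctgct

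Of 18193 genes tested with limma, 1124 (6.18%) differed between 10 h and 6 h at an adjusted p under 0.05, 505 of them higher (2.78%) and 619 lower (3.4%). The changes were small: the median fold of the called genes was 1.23, and 1 gene was higher (Aadat, 0.0055% of all genes) and 1 lower (Mt2, 0.0055%) by 2-fold or more. Leaving out 1 array moved the counts by more than 1.5 times. They were 145 higher and 167 lower without replicate 1 at 10 h, 162 and 308 without replicate 2 at 10 h, 285 and 252 without replicate 1 at 6 h, and 218 and 369 without replicate 2 at 6 h. They were 202 and 292 without the variance trend, in which the spread of a gene is estimated with regard to its level, and 246 higher genes with the mean of all probe sets of a gene in place of 1 chosen set. A core of 212 genes, 83 higher and 129 lower, stayed past the threshold without each of the 4 arrays and under every alternative fit that kept the same probe sets. All values are log2 levels after a normalization that sets the arrays to 1 distribution, so each difference is relative to the other transcripts, and the background level is not known.

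Albumin and the fetal liver protein gene Afp were bright in these cells, but the levels of hepatocyte genes were uneven. Of 11 measured hepatocyte and hepatoma markers 0 passed the test in the interval and their mean level was 8.74 and 8.80 at 10 h, against 8.74 and 8.79 at 6 h. Albumin (Alb) stood at 12.46 and 12.35 at 10 h, against 12.36 and 12.26 at 6 h, and the fetal liver protein gene Afp at 12.94 and 12.99, against 12.91 and 12.92. Krt18 (13.41) and Krt8 (12.83), as means over the series, were bright too. The other measured hepatocyte or hepatoma markers were dimmer. As means over the series, Foxa2 had 9.25, Gpc3 7.70, Hnf4a 6.57, Apoa1 6.32 and Ttr 5.65. Apob (5.16) and Serpina1b (3.58) lay near or below the array medians. Mean levels of stellate, endothelial and macrophage markers lay between 4.30 and 5.45 on these arrays, near or below the array medians of 5.15 to 5.21. None of 10 stellate and 10 endothelial markers passed. The 6 measured cholangiocyte markers had mean levels of 7.07 and 7.13 at 10 h, against 7.17 and 7.01 at 6 h, and 0 passed. In bulk RNA, fewer cells of a type and less RNA per cell cannot be told apart.

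**Figure D1:**
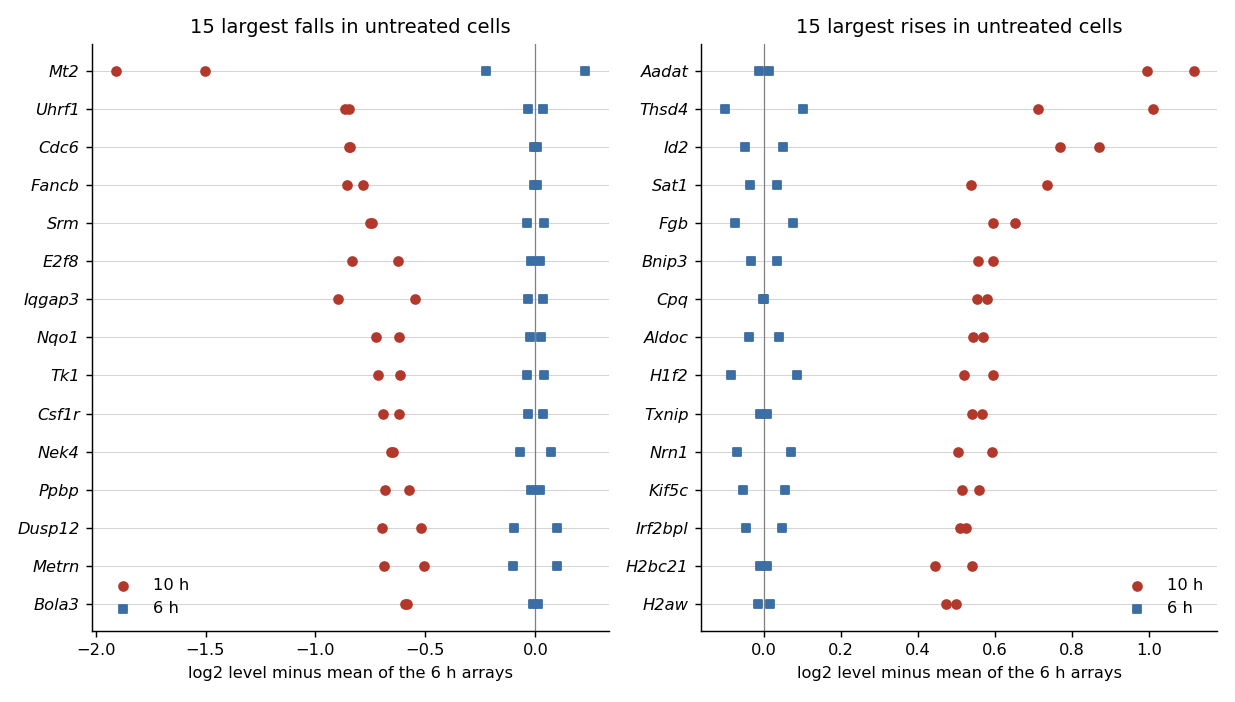
Log2 level of the 15 largest falls and the 15 largest rises in untreated cells on each of the 4 arrays, set against the mean of the 6 h arrays of the gene (circles, 10 h; squares, 6 h). For every gene both arrays at 10 h lie on 1 side of both arrays at 6 h, which the choice of genes required; Mt2 fell by 1.70 and Aadat was 1.06 higher on the log2 scale.

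The broadest change was a fall of genes of the G1/S transition and DNA replication. Of 44 measured members 26 were lower, 1 was higher and 17 did not pass, with a median log2 difference of -0.26, where the median over all genes was -0.01; 42 of the 44 differences were negative. Without replicate 1 or 2 at 10 h, 11 and 18 members were lower, and without replicate 1 or 2 at 6 h, 13 and 18; without the variance trend 14 were lower. Uhrf1, which reads hemimethylated DNA and brings in the maintenance methyltransferase, had log2 levels of 9.62 and 9.60 at 10 h, against 10.44 and 10.51 at 6 h. It was 1.81-fold lower (-0.86 ± 0.07, SE; adjusted p = 5.86e-07). Cdc6, which loads the replicative helicase onto origins, stood at 8.63 and 8.63 at 10 h, against 9.48 and 9.47 at 6 h, and was 1.80-fold lower (-0.85 ± 0.07, SE; adjusted p = 2.48e-06). In both genes the groups did not overlap, which the choice of the largest falls required. Over all 18193 genes the groups did not overlap in 22.5% (higher) and 24.4% (lower). Such statements here and below describe the values and lend no support.

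E2f8, an atypical E2F that represses E2F targets, had 7.47 and 7.68 at 10 h, against 8.29 and 8.33 at 6 h (1.66-fold lower, adjusted p = 2.83e-05). Tk1, the thymidine kinase of the salvage pathway, had 8.75 and 8.85 at 10 h, against 9.43 and 9.51 at 6 h (1.59-fold lower, adjusted p = 2.86e-05). Both were lower on either array at 10 h than on either array at 6 h. Mcm5, a subunit of the helicase that Cdc6 loads, had 11.04 and 11.16 at 10 h, against 11.63 and 11.58 at 6 h (1.42-fold lower, adjusted p = 2.49e-06). Rrm2, the small subunit of ribonucleotide reductase, had 11.61 and 11.64 at 10 h, against 12.06 and 12.09 at 6 h (1.36-fold lower, adjusted p = 6.68e-06). These groups did not overlap either. The helicase subunit genes Mcm4 (1.29-fold) and Mcm6 (1.21-fold), the polymerase gene Pold1 (1.36-fold) and the cyclin E gene Ccne1 (1.27-fold), named after their values were seen, were lower too; the call of Mcm6 was lost with the mean of its probe sets (adjusted p = 0.259). Ccnd1, the cyclin D gene upstream of this list, was the 1 member that was higher, at 11.84 and 11.84 at 10 h, against 11.64 and 11.65 at 6 h. Its difference of 0.19 (adjusted p = 0.0307) was lost without each of the 4 arrays (adjusted p = 0.147, 0.155, 0.133 and 0.117 without replicates 1 and 2 at 10 h and replicates 1 and 2 at 6 h). Outside the list, Fancb, a subunit of the Fanconi anaemia repair complex, was 1.77-fold lower, with 6.66 and 6.59 at 10 h, against 7.46 and 7.44 at 6 h.

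The list over the rest of the course is given from comparisons that share arrays with this one, with no test between them. From 3 to 6 h, 0 of the 44 members were higher and 3 lower (background 1.9% and 2.62% of all genes, 4.52% together), with a median of -0.06. From 0 to 10 h, 3 were higher and 37 lower (background 13.3% and 12.8%, 26.1% together), with a median of -0.41. The mean level of the list relative to 0 h was -0.06 and -0.07 at 1 h, -0.09 and -0.07 at 3 h, -0.14 and -0.17 at 6 h and -0.46 and -0.41 at 10 h. The E2F letters were in the promoters of 16 of the 36 members with a promoter entry (44.4%), and of 10 of the 22 called members with one (45.5%), against 2.6% of 27025 genes.

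Some genes of mitosis were lower too. Of 43 measured G2/M members 9 were lower and 0 higher, with a median of -0.14, and without replicates 1 and 2 at 10 h and replicates 1 and 2 at 6 h 3, 4, 4 and 6 were lower; without the variance trend 3 were. Birc5 (survivin, of the chromosomal passenger complex) had 10.77 and 10.74 at 10 h, against 11.13 and 11.06 at 6 h, and was 1.27-fold lower (adjusted p = 0.0001). Ccna2 (cyclin A) had 10.41 and 10.42 at 10 h, against 10.73 and 10.76 at 6 h, and was 1.25-fold lower (adjusted p = 0.0001). Both are named after their values were seen. Iqgap3, a scaffold protein of proliferating cells, was 1.65-fold lower, with 8.04 and 8.39 at 10 h, against 8.90 and 8.97 at 6 h (adjusted p = 7.94e-05). E2F letters were found in 1 of the 35 G2/M members with a promoter entry (2.86%), near the 2.6% of 27025 genes.

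Among brakes of the cycle, 2 of 7 CDK inhibitor genes were higher and 0 lower, and 0, 1, 1 and 0 were higher without replicates 1 and 2 at 10 h and replicates 1 and 2 at 6 h, and 1 with the mean of probe sets or without the variance trend. Cdkn1b (p27) had 9.31 and 9.27 at 10 h, against 8.96 and 8.91 at 6 h, and was 1.28-fold higher (0.35 ± 0.08, SE; adjusted p = 0.00806). That call was lost without replicate 1 at 10 h (adjusted p = 0.0904), without replicate 2 at 6 h (0.0671) and with the mean of its probe sets (0.38). Cdkn2b (p15) was 0.22 higher (adjusted p = 0.029), a call that was lost without any 1 of the 4 arrays (0.101, 0.2, 0.101 and 0.139 without replicates 1 and 2 at 10 h and replicates 1 and 2 at 6 h). Cdkn1a (p21) did not pass, at 11.78 and 11.75 at 10 h, against 11.64 and 11.64 at 6 h.

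A few histone genes were higher. Of 4 measured genes of the replication dependent histone list (of 19 listed) 3 were higher, also without each array in turn. H1f2, a linker histone, had 9.45 and 9.38 at 10 h, against 8.94 and 8.78 at 6 h (1.47-fold higher, adjusted p = 0.00063). H2bc21 had 8.71 and 8.80 at 10 h, against 8.27 and 8.26 at 6 h (1.41-fold higher, adjusted p = 0.000713). H2aw had 9.24 and 9.21 at 10 h, against 8.75 and 8.72 at 6 h (0.49 higher, adjusted p = 0.00207), but with the mean of its probe sets its adjusted p was 0.174. Transcripts of such genes mostly end in a stem loop without a poly(A) tail, so an array primed at poly(A) reads only the tailed form. H1f2 averaged 9.34 at 0 h, 9.35 at 1 h, 8.76 at 3 h, 8.86 at 6 h and 9.41 at 10 h, and its level at 10 h did not differ from that at 0 h by the test (adjusted p = 0.616).

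**Figure D2:**
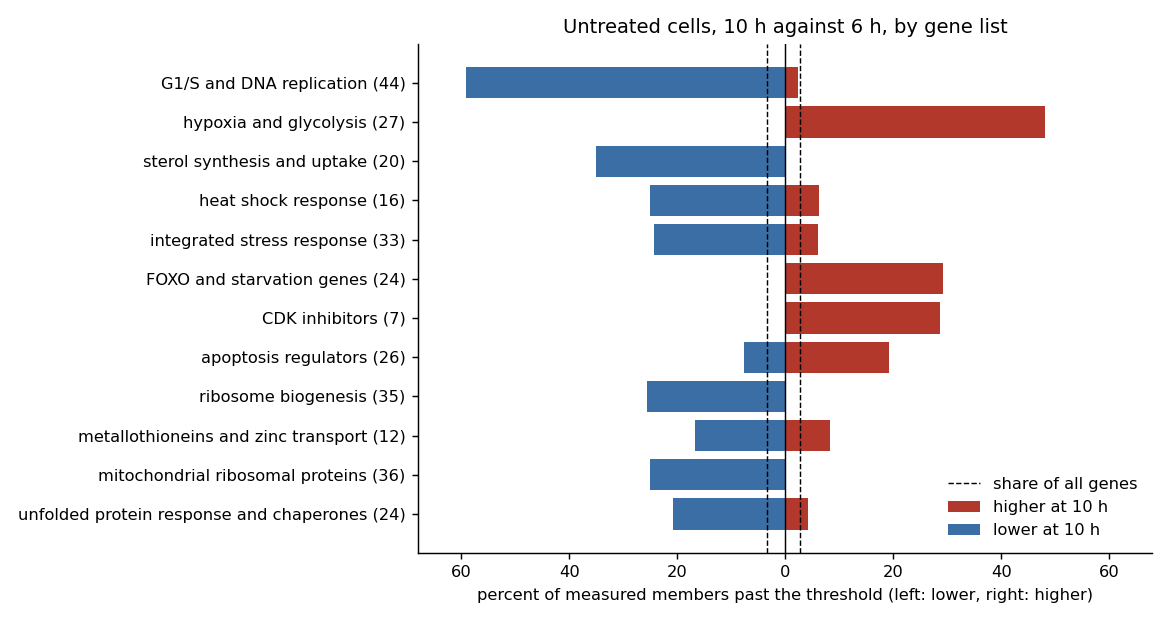
Percent of measured members (number in brackets) of the 12 gene lists with the highest called shares (lists of at least 5 measured genes, markers left out) that were higher (right) or lower (left) at 10 h than at 6 h in untreated cells, by limma at an adjusted p under 0.05; the dashed lines mark the share of all 18193 genes, 2.78% higher and 3.4% lower. The G1/S list has 26 of 44 members lower and the hypoxia list 13 of 27 higher.

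Part of the machinery of growth was lower. Srm, the spermidine synthase of polyamine synthesis, had 9.31 and 9.30 at 10 h, against 10.10 and 10.02 at 6 h, and was 1.68-fold lower (-0.75 ± 0.07, SE; adjusted p = 2.49e-06). Sat1, which acetylates spermidine and spermine for breakdown or export, was 1.55-fold higher, with 10.34 and 10.15 at 10 h, against 9.57 and 9.64 at 6 h (adjusted p = 3.42e-05). Of 35 measured ribosome biogenesis genes 9 were lower and 0 higher, with a median of -0.15 and 30 negative differences; 2, 4, 2 and 5 were lower without replicates 1 and 2 at 10 h and replicates 1 and 2 at 6 h, and 5 without the variance trend. Dkc1, the pseudouridine synthase of box H/ACA particles, had 11.36 and 11.42 at 10 h, against 11.78 and 11.75 at 6 h (1.30-fold lower, adjusted p = 0.000131). Both arrays at 10 h lay below both at 6 h. Nhp2, of the same particles, had 12.25 and 12.33 at 10 h, against 12.58 and 12.58 at 6 h (1.22-fold lower, adjusted p = 0.000724). Myc, which encodes a driver of these genes, did not pass, at 9.93 and 9.99 at 10 h, against 9.98 and 10.04 at 6 h.

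Of 36 measured mitochondrial ribosomal protein genes 9 were lower and 0 higher, with a median of -0.14, and 1, 4, 4 and 3 were lower in the order of arrays left out above, and 3 without the variance trend. Mrpl24 was 1.18-fold lower (adjusted p = 0.00387), the 1 of the 9 whose call held without each array. Of 28 measured genes of cytosolic ribosomal proteins 2 were higher and 0 lower (7.14%, near the 6.18% of all genes), with a median of 0.03 and 1 higher without any 1 of the 4 arrays; the difference between the 2 lists was not tested. Of 34 oxidative phosphorylation genes 3 were lower and 0 higher, near the background, with a median of -0.02 and 0 lower without any 1 of the 4 arrays or without the variance trend.

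The largest change of the interval was that of Mt2. It had 6.31 and 6.72 at 10 h, against 8.44 and 7.99 at 6 h, and was 3.26-fold lower (-1.70 ± 0.24, SE; adjusted p = 0.00027). Mt1, its neighbour on chromosome 8, had 8.91 and 8.92 at 10 h, against 9.89 and 9.61 at 6 h, and was 1.79-fold lower (-0.84 ± 0.20, SE; adjusted p = 0.014). The call of Mt1 was lost without replicate 1 or 2 at 10 h (adjusted p = 0.101 and 0.0847), without replicate 1 at 6 h (0.137) and without the variance trend (0.0932). Both had been falling before: Mt2 averaged 10.90 at 0 h, 10.94 at 1 h, 10.00 at 3 h, 8.22 at 6 h and 6.51 at 10 h, and Mt1 11.33, 11.40, 10.71, 9.75 and 8.92 at the same times. Slc39a4, which encodes a zinc importer of the plasma membrane, was the 1 member of the 12-gene metallothionein and zinc transport list that was higher, with 11.36 and 11.27 at 10 h, against 11.07 and 11.02 at 6 h (1.21-fold, adjusted p = 0.00504). Its call was lost without replicate 1 at 10 h (0.0998) and without replicate 2 at 6 h (0.0587). Metal response letters were in 8 of the 10 list members with a promoter entry (80%), against 28.2% of 27025 genes.

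**Figure D3:**
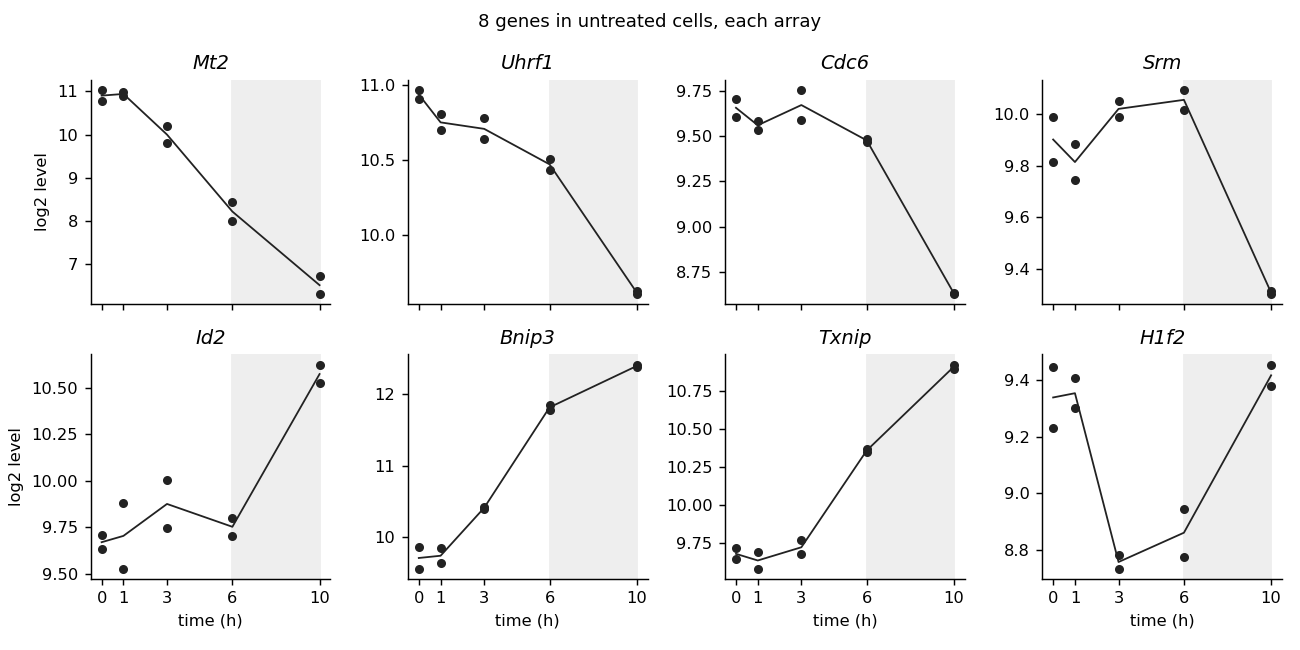
Log2 level of 8 genes in untreated cells on each array at 0, 1, 3, 6 and 10 h (points; lines join the means of the 2 arrays), with the compared interval shaded. Mt2 declined after 1 h, Uhrf1, Cdc6 and Srm dropped mainly in the shaded interval, and Id2 and H1f2 were higher at 10 h than at 6 h.

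Genes of sterol synthesis and uptake, which had risen up to 6 h, were lower at 10 h. Of 20 measured members 7 were lower, 0 higher and 13 did not pass, with a median of -0.19 and 19 negative differences. Without replicates 1 and 2 at 10 h and replicates 1 and 2 at 6 h, 5, 5, 3 and 7 were lower, and without the variance trend 4. Hsd17b7, a reductase of the late pathway, had 8.99 and 9.10 at 10 h, against 9.57 and 9.47 at 6 h (1.39-fold lower, adjusted p = 0.000183). Idi1, the isopentenyl diphosphate isomerase, had 11.08 and 11.17 at 10 h, against 11.50 and 11.44 at 6 h (1.27-fold lower, adjusted p = 0.00063), a call lost with the mean of its probe sets (0.44). Mvk, the mevalonate kinase, was 1.37-fold lower (adjusted p = 0.00259, and 0.0515 without replicate 1 at 6 h), and Stard4, a sterol carrier, 1.39-fold lower (adjusted p = 0.0029, and 0.0561 without replicate 2 at 10 h).

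The levels nevertheless stayed above the start. In the comparisons that share arrays, 13 of the 20 were higher and 0 lower from 3 to 6 h, with a median of 0.32 (background 1.9% and 2.62% of all genes). From 0 to 10 h 19 were higher and 0 lower, with a median of 1.10 (background 13.3% and 12.8%). The mean level of the list relative to 0 h was 0.29 and 0.25 at 1 h, 0.84 and 0.89 at 3 h, 1.27 and 1.22 at 6 h and 1.02 and 1.08 at 10 h. Srebf2, the gene of the controlling factor, did not pass in the last interval, at 9.49 and 9.62 at 10 h, against 9.62 and 9.57 at 6 h. In fatty acid synthesis 4 of 21 genes were lower and 0 higher, and 1, 3, 3 and 3 were lower without the same arrays in turn. Fasn, the fatty acid synthase, had 10.87 and 10.91 at 10 h, against 11.28 and 11.29 at 6 h, and was 1.32-fold lower (adjusted p = 7e-05). Scd1, the stearoyl-CoA desaturase, did not pass, at 12.45 and 12.45 at 10 h, against 12.47 and 12.43 at 6 h.

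**Figure D4:**
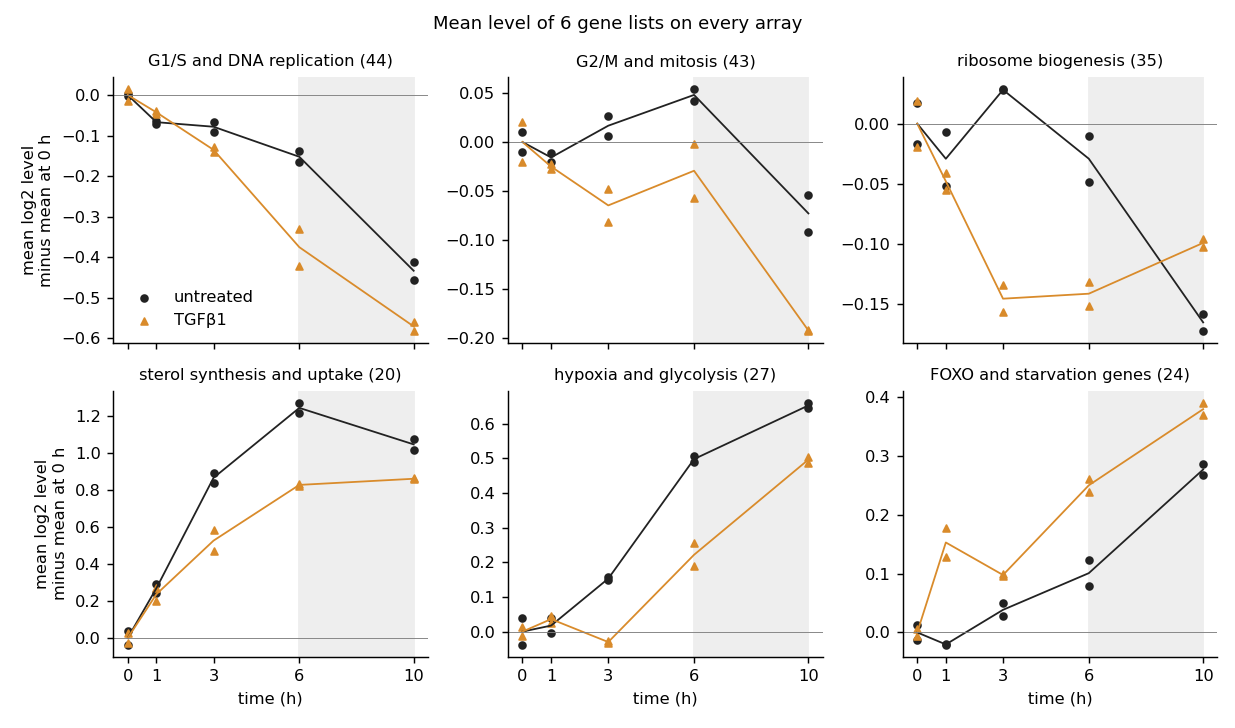
Mean log2 level of 6 gene lists relative to the mean at 0 h, on each array of untreated (circles) and TGFβ1-treated cells (triangles) at 0, 1, 3, 6 and 10 h, with lines through the means of duplicates and the interval from 6 to 10 h shaded. In untreated cells the G1/S list is at -0.46 and -0.41 at 10 h, against -0.14 and -0.17 at 6 h, and the sterol list at 1.02 and 1.08, against 1.27 and 1.22.

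Genes of the hypoxia response and glycolysis went on rising. Of 27 measured members 13 were higher, 0 lower and 14 did not pass, with a median of 0.19. The count was 3, 6, 9 and 8 without replicates 1 and 2 at 10 h and replicates 1 and 2 at 6 h, 5 with the mean of probe sets and 6 without the variance trend. Bnip3, a mitophagy receptor of the BCL2 family, had 12.41 and 12.37 at 10 h, against 11.78 and 11.84 at 6 h, and was 1.49-fold higher (0.58 ± 0.09, SE; adjusted p = 0.000534). Aldoc, an aldolase of glycolysis, had 10.77 and 10.80 at 10 h, against 10.26 and 10.19 at 6 h, and was 1.47-fold higher (0.56 ± 0.08, SE; adjusted p = 0.000301). Pdk1, which turns off pyruvate dehydrogenase, had 10.69 and 10.73 at 10 h, against 10.32 and 10.33 at 6 h (1.31-fold higher, adjusted p = 0.00251; 0.0972 with the mean of its probe sets). Pfkfb3, which makes the activator of phosphofructokinase, was 1.43-fold higher (adjusted p = 0.00352), a call lost without replicate 1 at 10 h (0.0596) and with the mean of its probe sets (0.0797). Vegfa, the vascular growth factor gene, did not pass, at 8.71 and 8.79 at 10 h, against 8.53 and 8.53 at 6 h. Bnip3 averaged 9.71 at 0 h, 9.74 at 1 h, 10.41 at 3 h, 11.81 at 6 h and 12.39 at 10 h. Core hypoxia response letters were in 9 of the 12 called members with a promoter entry (75%) and in 19 of all 26 with one (73.1%). Of 27025 genes 21.8% held them.

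Of 24 measured FOXO and starvation genes 7 were higher and 0 lower, with a median of 0.22, and 4, 5, 7 and 5 were higher without the same arrays in turn. Txnip, which binds thioredoxin and restrains glucose uptake, had 10.93 and 10.90 at 10 h, against 10.35 and 10.37 at 6 h, and was 1.47-fold higher (0.55 ± 0.07, SE; adjusted p = 6.18e-05). Ccng2, an atypical cyclin of arrested cells, had 10.79 and 10.83 at 10 h, against 10.50 and 10.59 at 6 h (1.20-fold higher, adjusted p = 0.00217). For both genes the arrays at 10 h lay above those at 6 h. Gadd45a, a stress sensor, had 9.89 and 9.93 at 10 h, against 9.64 and 9.59 at 6 h (1.23-fold higher, adjusted p = 0.00352). Irs2, an insulin receptor substrate, and Igfbp1 did not pass (differences of 0.25 and 0.16). Of 26 apoptosis regulators 5 were higher and 2 lower, and without the same arrays 3, 4, 3 and 4 were higher and 0, 0, 1 and 0 lower; without the variance trend 3 were higher and 1 lower, and with the mean of probe sets 0 were lower. Besides Bnip3 they included Pmaip1 (NOXA), a BH3-only gene with 10.79 and 10.86 at 10 h, against 10.48 and 10.37 at 6 h (1.31-fold higher, adjusted p = 0.00183).

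Stress lists were split. Of 33 measured genes of the integrated stress response 8 were lower and 2 higher, with a median of -0.08 and 2, 4, 4 and 4 lower without the same arrays in turn; 3 were lower without the variance trend, and 0 higher with the mean of probe sets. Slc7a1, the cationic amino acid transporter, had 11.75 and 11.71 at 10 h, against 12.15 and 12.18 at 6 h (1.35-fold lower, adjusted p = 5.68e-05). Mthfd2, of mitochondrial folate metabolism, had 9.05 and 8.98 at 10 h, against 9.47 and 9.51 at 6 h (1.39-fold lower, adjusted p = 7.94e-05). In both genes the groups did not overlap. Slc38a2, the neutral amino acid transporter of the same list, was higher instead, with 13.06 and 13.03 at 10 h, against 12.75 and 12.70 at 6 h (1.25-fold, adjusted p = 7.94e-05; 0.167 with the mean of its probe sets). Asns, the asparagine synthetase, and Trib3 did not pass (differences of -0.04 and -0.14). Of 16 heat shock genes 4 were lower and 1 higher, with 1, 2, 1 and 2 lower without the same arrays, 2 with the mean of probe sets and 1 without the variance trend. Hsph1, a large heat shock protein, was 1.33-fold lower, with 11.69 and 11.71 at 10 h, against 12.12 and 12.10 at 6 h (adjusted p = 0.000385). Of 24 genes of the unfolded protein response 5 were lower and 1 higher, a count of lower genes that was 4, 0, 2 and 5 without the same arrays, 3 with the mean of probe sets and 2 without the variance trend.

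The largest rises outside these lists were of mixed function. Id2, a helix-loop-helix protein that inhibits differentiation factors, had 10.52 and 10.62 at 10 h, against 9.80 and 9.70 at 6 h, and was 1.77-fold higher (0.82 ± 0.10, SE; adjusted p = 4.88e-05). Its relative Id3 had 10.77 and 10.68 at 10 h, against 10.25 and 10.29 at 6 h (1.37-fold higher, adjusted p = 0.000432). Both arrays at 10 h were above both arrays at 6 h for each gene. Thsd4, a matrix protein with thrombospondin repeats, had 8.09 and 7.79 at 10 h, against 6.98 and 7.18 at 6 h (1.82-fold higher, adjusted p = 0.00027). Fgb, the fibrinogen beta chain made by hepatocytes, had 8.87 and 8.82 at 10 h, against 8.30 and 8.15 at 6 h (1.54-fold higher, adjusted p = 0.000466). Aadat, an aminotransferase of lysine and kynurenine breakdown, had 4.39 and 4.51 at 10 h, against 3.41 and 3.38 at 6 h. It was 2.08-fold higher (adjusted p = 0.000851), but all 4 values lie below the array medians. Nrn1 (1.46-fold), Cpq (1.48-fold), Kif5c (1.45-fold) and Irf2bpl (1.43-fold) followed; with the mean of their probe sets the calls of Cpq (0.569), Kif5c (0.23) and Irf2bpl (0.17) were lost.

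Of 19 measured genes of the circadian clock 4 were higher, 0 lower and 15 did not pass, with a median of 0.06, and 3, 2, 4 and 2 were higher without replicates 1 and 2 at 10 h and replicates 1 and 2 at 6 h. Nr1d2 (REV-ERB beta, a repressor of the clock), named after its values were seen, had 10.55 and 10.47 at 10 h, against 10.10 and 10.04 at 6 h (1.36-fold higher, adjusted p = 3.42e-05). Dbp, a factor driven by the clock, had 7.53 and 7.69 at 10 h, against 7.07 and 6.85 at 6 h (1.56-fold higher, adjusted p = 0.00655), a call lost without replicate 2 at 10 h (0.0942) and without replicate 2 at 6 h (0.0847). Per2 and Nr1d1 did not pass, at differences of -0.06 and 0.25. The E-box letters CACGTG, which 8.09% of genes with a promoter entry held, were in 5 of 17 clock genes (29.4%), among them Tef, a relative of Dbp (1.38-fold higher, adjusted p = 0.000466; 0.226 with the mean of its probe sets), and not in the promoters of Nr1d2 and Dbp. Of 35 immediate early genes 6 were higher and 0 lower, and 3, 5, 7 and 5 were higher without the same arrays. Dusp1, a phosphatase of MAP kinases, had 8.77 and 8.83 at 10 h, against 8.50 and 8.27 at 6 h (1.34-fold higher, adjusted p = 0.00187; named after its values were seen). Of 12 genes of mRNA decay and RNA feedback 3 were higher and 0 lower (25%), and 2 were higher without any 1 of the 4 arrays. Tob1, an antiproliferative protein that brings in deadenylases, had 12.20 and 12.16 at 10 h, against 11.86 and 11.85 at 6 h (1.25-fold higher, adjusted p = 0.000783). The others were Zfp36l1, a destabiliser of mRNA (0.28 higher), and Btg1, a relative of Tob1 (0.22 higher), whose call was lost without each array (adjusted p = 0.122, 0.0632, 0.0835 and 0.0645 in the same order).

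Among the remaining falls, Nqo1, a quinone reductase under the oxidative stress factor NRF2, had 8.82 and 8.92 at 10 h, against 9.57 and 9.52 at 6 h, and was 1.59-fold lower (-0.67 ± 0.06, SE; adjusted p = 2.48e-06). Of 20 NRF2 targets 4 were lower and 0 higher, and 1, 3, 3 and 3 were lower without the same arrays. Ppbp, a platelet chemokine gene, had 6.86 and 6.75 at 10 h, against 7.45 and 7.41 at 6 h (1.55-fold lower, adjusted p = 0.000466). Its groups did not overlap, as the choice of the largest falls required. Metrn, a secreted protein, had 9.37 and 9.18 at 10 h, against 9.77 and 9.97 at 6 h (1.51-fold lower, adjusted p = 0.000269). Bola3 (-0.59), Dusp12 (-0.61) and Nek4 (-0.65 on the log2 scale) were lower, calls lost with the mean of their probe sets (0.181, 0.284 and 0.104).

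Csf1r, the macrophage colony stimulating factor receptor, was 1.58-fold lower in its chosen probe set, with 5.95 and 5.88 at 10 h, against 6.54 and 6.61 at 6 h (adjusted p = 0.000466). With the mean of its probe sets the adjusted p was 0.0507. When every probe set was tested with limma, its other sets did not pass. A set of similar mean level (6.57) had -0.09 (adjusted p = 0.824) and a dimmer one (5.30) had -0.15 (0.698). It was the 1 of 11 Kupffer cell and macrophage markers that passed. The summed log2 level of the 11 was 55.1 and 54.4 at 10 h, against 56.2 and 55.3 at 6 h; no marker was listed at 0, and the pan-leukocyte gene Ptprc averaged 3.31 at 10 h, against 3.41 at 6 h. The part of such cells in the value of Csf1r was not tested.

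Of 21 hepatocyte transcription factor genes 0 passed, and of 20 YAP/TEAD targets 0 passed, where 6.18% of all genes did; their medians were 0.00 and 0.03. Of 18 genes of fatty acid oxidation and ketone synthesis 2 were higher and 0 lower (11.1%), and 0 were higher without replicate 1 at 10 h or with the mean of probe sets, and 1 without any of the other 3 arrays. Of 42 secreted plasma protein genes 1 was higher and 0 lower, and that call (Proc, protein C) held without replicate 2 at 6 h but was lost without replicates 1 and 2 at 10 h (adjusted p = 0.142 and 0.0509) and replicate 1 at 6 h (0.22). Of 35 cytochrome P450 genes 2 were higher and 1 lower (8.57%), and without replicates 1 and 2 at 10 h and replicates 1 and 2 at 6 h 1, 0, 2 and 1 were higher and 1, 0, 0 and 0 lower. Hnf4a, a master factor of hepatocytes, had 6.61 and 6.96 at 10 h, against 6.36 and 6.63 at 6 h, groups that overlap.

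The same interval was measured in cells with TGFβ1, on arrays that the untreated comparison does not use. There 1980 genes differed (10.9%), 1066 higher (5.86%) and 914 lower (5.02%). Of the 505 genes higher in untreated cells 233 (46.1%) were also higher in treated cells, which is 21.9% of the treated list, and 23 were called lower there. Of the 619 lower genes 258 (41.7%) were lower in treated cells, 28.2% of the treated list, and 4 were called higher. The 2 comparisons share 1 estimate of spread per gene. The test of the difference between the intervals called 444 genes (2.44%), 242 with the more positive change in untreated cells (1.33%) and 202 with the more negative one (1.11%). Of the 1124 genes called in untreated cells it called 61 of the higher and 52 of the lower.

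Replication genes fell in both. Of the 44 G1/S members 19 were lower and 1 higher in treated cells, and 0 differed between the intervals; Uhrf1 changed by -0.86 in untreated cells and -0.69 in treated cells (difference -0.17, adjusted p = 0.515), and Mcm5 by -0.51 and -0.61 (difference 0.10, adjusted p = 0.644). A difference that misses the threshold does not show equal changes. The hypoxia list had 17 of 27 members higher in treated cells, and Bnip3 changed by 0.58 in untreated and 0.70 in treated cells. Mt2 changed by -1.70 in untreated and -2.29 in treated cells (difference 0.59, adjusted p = 0.562).

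Ribosome and sterol genes differed in part. Of the 35 ribosome biogenesis genes 1 was higher and 1 lower in treated cells, where untreated cells had 0 and 9. The test of the difference called 3, all with the more negative change in untreated cells, a call that 1.11% of all genes had. In treated cells the mean level of the list relative to 0 h was already -0.13 and -0.16 at 3 h. It was -0.13 and -0.15 at 6 h and -0.10 and -0.10 at 10 h. In untreated cells it was 0.03 and 0.03, -0.01 and -0.05, and -0.17 and -0.16 at these times. Dkc1 changed by -0.38 in untreated and 0.13 in treated cells (difference -0.51 ± 0.07, SE; adjusted p = 0.000188). Srm changed by -0.75 in untreated and -0.16 in treated cells (difference -0.59 ± 0.10, SE; adjusted p = 0.00113); its treated levels were 9.27 and 9.30 at 10 h, against 9.54 and 9.35 at 6 h. Dkc1 and Srm, like Irf2bpl below, were chosen by their change in untreated cells, and the same untreated arrays enter the test of the difference. In the sterol list 2 of the 20 members passed as higher in treated cells and 0 as lower, where 5.86% and 5.02% of all genes did. The test of the difference called 3, all with the more negative change in untreated cells, where 1.11% of all genes had such a call. Among the 3, Hsd17b7 and Mvk lost the call with the mean of probe sets (adjusted p = 0.376 and 0.218). They also lost it without some single arrays. In treated cells the list stood at 0.83 and 0.82 relative to 0 h at 6 h, and at 0.86 and 0.86 at 10 h. In untreated cells it had reached 1.27 and 1.22 at 6 h.

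Some genes moved in opposite directions. Irf2bpl, a transcriptional regulator, rose by 0.52 in untreated cells and changed by -0.40 in treated cells (difference 0.92 ± 0.12, SE; adjusted p = 0.000123). The call of the treated fall was lost without replicate 2 of the treated arrays at 10 h (-0.34) and at 6 h (-0.35). With the mean of its probe sets the treated call was lost too (-0.29, adjusted p = 0.0624), as was the untreated one. Elovl6, a fatty acid elongase named after its values were seen, changed by -0.32 in untreated and 0.52 in treated cells (difference -0.84 ± 0.08, SE; adjusted p = 2.8e-06); its untreated call was lost without replicate 1 at 10 h (0.0517). Smad7, the inhibitory SMAD, changed by 0.33 in untreated and -0.35 in treated cells (difference 0.68 ± 0.10, SE; adjusted p = 0.000298), and its untreated call was lost without replicate 2 at 10 h (0.147), without replicate 2 at 6 h (0.0556) and with the mean of its probe sets (0.0799). Id3 rose in both, by 0.46 in untreated and 1.52 in treated cells (difference -1.07 ± 0.10, SE; adjusted p = 1.31e-06).

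**Figure D5:**
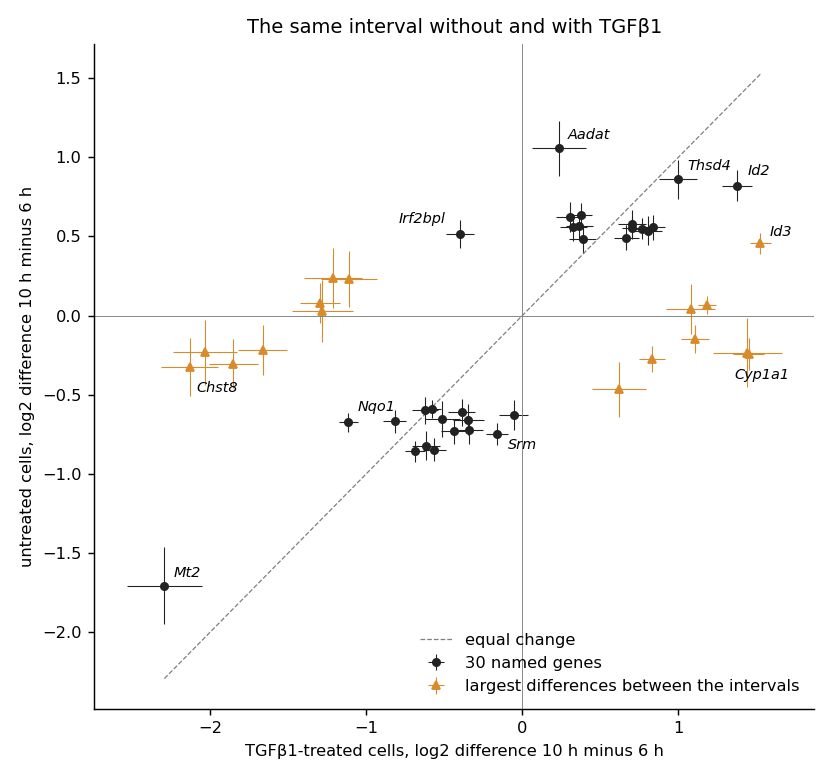
Log2 difference of 10 h minus 6 h in untreated cells (vertical axis) against the same in TGFβ1-treated cells (horizontal axis) for the 30 largest rises and falls in untreated cells (circles) and the largest differences between the intervals (triangles); bars are standard errors and the dashed line marks equal change. Mt2 is at -1.70 and -2.29, Srm at -0.75 and -0.16, and Irf2bpl at 0.52 and -0.40.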

How the data were processed

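Expression was measured on 20 Affymetrix arrays of Hepa1-6 cells, 1 per culture, in 10 groups of 2. The authors deposited log2 expression values per probe set, made with RMA per the submitters' processing notes. RMA subtracts background, sets all arrays to 1 distribution and sums the probes of a set, which compresses differences of dim probe sets. Version, chip definition and genome build: not given in the sources used here. Of 45037 probe sets, 34945 named 1 gene in the platform annotation, 932 several and 9160 none. For each of 18193 genes the probe set with the highest mean level over the series was kept. Duplicates correlated at 0.9958 to 0.9971.

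The tests used limma 3.58.1 (R 4.3.3), with 1 mean per group over all 20 arrays, 10 residual degrees of freedom, a variance trend (eBayes) and Benjamini-Hochberg adjustment over all genes within a comparison. The threshold was 0.05. The arrays' number limits the precision: log2 differences had a median standard error of 0.13. The script was tested on simulated data. Replicate differences at 10 h and 6 h had a correlation of -0.01, and the 45 pairs of groups ranged from -0.20 to 0.21, so no block was used. These correlations cannot exclude that the numbers pair the cultures. The labels name no batch.

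The 46 gene lists (1233 entries, 1131 measured) and the rules were chosen with earlier results of these data known. Named genes were the 15 largest rises and 15 largest falls with groups that did not overlap and calls that held without each array and under every alternative with the same probe sets, unnamed gene models left out; up to 4 called members, lowest adjusted p first, of the 12 lists with the highest called share among lists with at least 5 measured members, markers left out, where 3 of 4 lists tied at 25% were taken in the order of the list table; a panel of 42 genes; and the 8 largest per direction in the treated interval and in the difference between intervals. Lists are described by counts and medians, with no set test. Alternatives were another normalization, other probe set rules, other variance models, a replicate block and leaving out each array.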

Additional observations from a re-analysis of the deposited data

Results flagged for a closer look

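The change from 6 to 10 h differed between untreated and treated cells by the interaction test in 38 of the genes named, given here as the log2 change in untreated minus that in treated cells. Among the largest falls and rises it was -0.59 for Srm, -0.57 for Ppbp, 0.44 for Nqo1, -0.55 for Id2 and 0.92 for Irf2bpl. These, and the called list members below, were chosen by their change in untreated cells. The same untreated arrays enter the test of the difference. Among list members and the panel it was -0.51 for Dkc1, -0.42 for Hsd17b7, -0.48 for Mvk, -0.41 for Hsph1, -0.37 for Slc7a1 and 0.28 for Slc38a2. It was 0.36 for Ccng2, 0.48 for Gadd45a, 0.52 for Cdkn2b, 0.35 for Ddit4, 0.28 for Srebf1, -0.30 for Scd1, 0.68 for Smad7, -0.31 for Id1 and -1.07 for Id3. For genes named after their values were seen it was -0.84 for Elovl6 and 0.31 for Zfp36l1.

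The other flagged genes were chosen for this difference. It was 1.81 for Chst8, 1.80 for Trbv1, 1.55 for Pstpip1, 1.45 for Lmcd1, 1.44 for Ldlrad4, 1.37 for Spsb1, 1.34 for Vdr, 1.31 for P2ry14 and 1.06 for Bhlhe40. It was -1.69 for Cyp1a1, -1.67 for Angpt1, -1.25 for Hunk, -1.12 for Tmem71, -1.11 for Fgfbp1, -1.09 for Mbl2 and -1.04 for Serpini1. Mean levels of Trbv1 (4.42), Ldlrad4 (4.01) and Mbl2 (3.66) over the series lay below the array medians of 5.15 to 5.21. With the mean of probe sets, several of the 38 calls were lost. The adjusted p of the difference was then 0.583 for Slc38a2, 0.376 for Hsd17b7, 0.319 for Serpini1 and 0.273 for Scd1. For Mvk it was 0.218, for Spsb1 0.204 and for Hsph1 0.0848. In untreated cells Chst8, Cyp1a1 and Angpt1 did not pass in the interval (-0.32, -0.24 and -0.23), while in treated cells they changed by -2.13, 1.45 and 1.44.

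The call of 12 of these genes was lost when 1 array was left out, with the highest adjusted p as follows. Without replicate 1 of the untreated arrays at 10 h it was 0.159 for Id2, 0.11 for Mbl2 and 0.0962 for Hsd17b7, and without replicate 2 of them 0.108 for Ppbp and 0.0558 for P2ry14. Without replicate 2 of the untreated arrays at 6 h it was 0.128 for Srebf1. Without treated arrays it was 0.0551 for Hsph1 (replicate 1 at 10 h), 0.194 for Mvk and 0.0763 for Zfp36l1 (replicate 2 at 10 h), 0.169 for Scd1 (replicate 2 at 6 h), and 0.0546 for Id1 and 0.0812 for Serpini1 (replicate 1 at 6 h).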

How the results depend on the processing

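With 2 arrays per group, small differences were not stable: 822 of 4946 gene values recomputed under an alternative were past the threshold in the first fit and not in the second, 7 the reverse, and 2 changed sign. Most genes of this count were chosen because the first fit called them, so few could move the other way. With the mean of probe sets the log2 difference of Gins1 was 0.061 and that of Ier5 -0.011, both called with the opposite sign in their chosen probe sets. Of the list counts 223 were within 1.5 times and 89 were not. The background level is not known, and differences are relative to the other transcripts. For 10 h against 6 h in untreated cells, 246 genes were higher with the mean of probe sets, and 202 were higher and 292 lower without the variance trend. At 1.5-fold in place of 2-fold, 30 were higher and 33 lower. For the difference between untreated and treated intervals, 153 and 134 genes were called with the mean of probe sets, and 149 and 91 without the trend. For 6 h against 3 h these were 217 and 255, and 132 and 166. For 10 h against 0 h, 3941 of 34945 probe sets were lower when every probe set was tested. That counts probe sets, where the main fit had 2331 of 18193 genes lower. Leaving out 1 array gave 145 to 285 genes higher and 167 to 369 lower for 10 h against 6 h in untreated cells, and 533 to 674 and 511 to 670 in treated cells. It gave 166 to 226 and 104 to 147 for the difference, 107 to 202 and 110 to 398 for 6 h against 3 h, and 1822 to 1945 and 1678 to 1920 for 10 h against 0 h. The replicate number as a block gave 579 higher and 678 lower genes for 10 h against 6 h. Whether the numbers pair the samples is not known. Compared arrays alone turned the split to 634 higher and 556 lower. The cause of these moves was not tested, beyond the smaller number of arrays when 1 was left out.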
